A study of Homo sapiens with 2 samples.

Results

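H3K27me3 was examined at 9 genes of the epithelial to mesenchymal switch in HCT116, an established human colorectal carcinoma cell line. The genes were CDH1 and EPCAM for the epithelial state, CDH2 and FN1 for the mesenchymal state, and the transcription factor genes SNAI1, SNAI2, TWIST1, ZEB1 and ZEB2. The study held 1 group of 2 ChIP-seq libraries, described as biological replicates, from cells with no treatment named in the labels, with 53187504 reads in replicate 1 and 97031399 reads in replicate 2. No input library and no other condition were used here. The members were the 90 bins of 1 kb that lie within 5 kb of the 9 starts, of 2600564 autosomal bins with a read in either library. Starts were set to the nearest kb on hg19 from general knowledge of the gene models, at 68771 kb of chromosome 16 for CDH1, 47596, 145278 and 216301 kb of chromosome 2 for EPCAM, ZEB2 and FN1, and 25757 kb of chromosome 18 for CDH2. The others lay at 48599 kb of chromosome 20 for SNAI1, 49834 kb of chromosome 8 for SNAI2, 19157 kb of chromosome 7 for TWIST1 and 31608 kb of chromosome 10 for ZEB1. A level is a read count over the mean of the library's listed autosomal 1 kb bins, namely 22 reads for replicate 1 and 37.5 for replicate 2.

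H3K27me3 is the trimethylation of lysine 27 on histone H3, which Polycomb repressive complex 2 deposits on silent developmental genes, often at promoters rich in CG dinucleotides. In the epithelial to mesenchymal switch, cells lose E-cadherin junctions and gain motility and matrix production, and the factors of the SNAI, ZEB and TWIST families repress epithelial genes, SNAI and ZEB proteins by binding E-boxes such as CACCTG in promoters like that of CDH1. In cells of epithelial type, Polycomb is known as a means of keeping genes of the mesenchymal state silent, beside DNA methylation and the lack of activators. A level of the mark says nothing by itself about transcription.

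Promoter sequences show the base composition just before the start, a small part of the 10 kb over which levels were read. Of the 9 genes, 4 matched the RefSeq promoter table on GRCh38.p14: FN1, ZEB2, CDH2 and ZEB1. The 250 bases before the start are printed for the gene with the highest level, the next one, and the gene with the lowest, 5′ to 3′ on the gene's strand, with CG dinucleotides in capitals. They come from chr2:215436069-215436318 for FN1, chr2:144520120-144520369 for ZEB2 and chr18:28177131-28177380 for CDH2, each on the minus strand of GRCh38.p14.
FN1: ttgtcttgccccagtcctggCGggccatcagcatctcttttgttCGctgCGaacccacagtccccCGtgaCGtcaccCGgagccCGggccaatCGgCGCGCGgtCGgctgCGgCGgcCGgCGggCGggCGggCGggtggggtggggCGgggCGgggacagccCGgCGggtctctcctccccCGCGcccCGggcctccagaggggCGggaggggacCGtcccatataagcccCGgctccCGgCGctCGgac
ZEB2: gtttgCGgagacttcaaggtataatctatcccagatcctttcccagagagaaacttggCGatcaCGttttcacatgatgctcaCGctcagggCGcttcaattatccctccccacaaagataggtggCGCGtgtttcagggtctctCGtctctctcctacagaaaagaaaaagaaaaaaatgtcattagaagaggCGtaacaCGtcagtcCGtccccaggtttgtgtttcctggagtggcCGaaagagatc
CDH2: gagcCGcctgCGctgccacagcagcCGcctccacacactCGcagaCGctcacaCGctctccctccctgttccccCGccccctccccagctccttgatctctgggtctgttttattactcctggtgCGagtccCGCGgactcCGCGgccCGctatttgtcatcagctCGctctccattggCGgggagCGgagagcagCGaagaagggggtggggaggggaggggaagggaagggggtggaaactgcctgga
The FN1 stretch held 32 CG dinucleotides and was 76.4% G+C, the CDH2 stretch 17 and 66.0%, and the ZEB2 stretch 12 and 48%. Over the 35116 promoters of the table the median was 11 CG, and FN1 stood at percentile 91.2, CDH2 at 62.1 and ZEB2 at 52.4. The order of the CG counts was thus not that of the levels below, in which ZEB2 stood above CDH2. These orders are of unlike stretches, since the counts cover 250 bases and the levels 10 kb. The enriched bins of FN1 described below lie 1 to 3 kb before the start, outside the printed stretch. CDH2 has a further entry at an inner start, with 4 CG.

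The E-box CACCTG, searched on both strands as the only motif, was not among the letters of those 3 stretches. ZEB1 has 7 entries, of which the first and the third held it, and the third held 2 copies in the 250 bases before its start. That stretch lies at chr10:31318966-31319215 on the plus strand of GRCh38.p14 and is shown with the E-boxes in capitals.
ZEB1: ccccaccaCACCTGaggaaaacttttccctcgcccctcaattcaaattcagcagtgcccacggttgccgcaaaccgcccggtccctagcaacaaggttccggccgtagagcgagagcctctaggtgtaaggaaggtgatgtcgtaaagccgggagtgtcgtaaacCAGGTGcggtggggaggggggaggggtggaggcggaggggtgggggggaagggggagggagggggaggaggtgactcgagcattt
Of all 35116 promoters, 17.5% held at least 1 copy in the 250 bases before the start. A match is a description of letters and not of binding.

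None of the 9 genes had a 10 kb window rich in H3K27me3 as a whole. The window of 10 kb around the start reached 2-fold in both libraries at 0 of 9 genes, while 13.6% of 267126 autosomal windows of 10 kb did. The median over the 9 genes was 0.368 in replicate 1 and 0.330 in replicate 2, and the median autosomal window stood at 0.336 and 0.357. In the order of mean level the genes were FN1, ZEB2, CDH1, SNAI2, TWIST1, SNAI1, ZEB1, EPCAM and CDH2. The values of the libraries overlapped between ZEB2 and CDH1 and between each neighbouring pair from SNAI2 to EPCAM. They did not overlap between FN1 and ZEB2, CDH1 and SNAI2, or EPCAM and CDH2. Within 10 kb of the starts FN1 stood at 1.14 and ZEB2 at 1.38, the opposite order, and scaled to the median autosomal bin 3 of 9 genes (FN1, ZEB2 and CDH1) reached 2-fold, as did 29.0% of autosomal windows. With no input library, levels are not corrected for copy number or mappability, and in bulk cells a low level on every copy and a high level in few cells cannot be told apart.

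**Figure D1:**
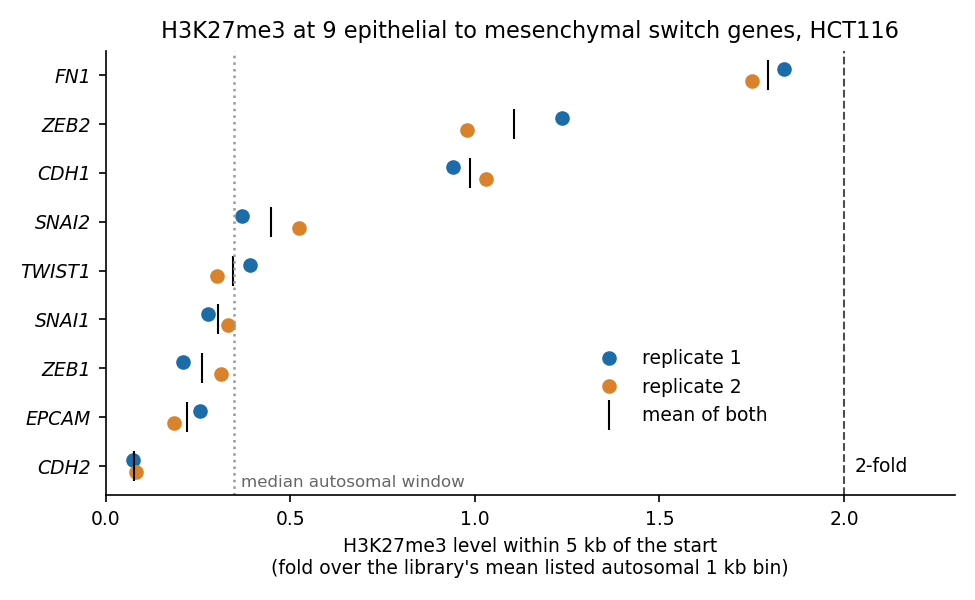
H3K27me3 level within 5 kb of the start of each gene, as fold over the library's mean listed autosomal 1 kb bin, in replicate 1 (blue) and replicate 2 (orange), with the mean of both as a black bar. FN1 stands highest at 1.84 and 1.75, under the dashed line at 2-fold, and CDH2 lowest at 0.0727 and 0.0826; the dotted line is the median autosomal 10 kb window.

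Single bins were then examined at 1 kb. Bins were called enriched where they reached 2-fold and passed a one-sided Poisson test for counts above the library mean (Benjamini-Hochberg adjusted p under 0.05, over all listed bins) in each library. At these depths each bin that reached 2-fold also passed the test, so the 2-fold limit carried the call. The call held for 3 of the 90 member bins (3.33%), and for 12.7% of all autosomal bins. Counts were also divided by the dispersion, a measure of how far the split of reads between the libraries varies beyond that of independent reads. The call then held for 3 member bins and for 12.5% of autosomal bins. The 3 bins lay at FN1 (2 bins) and ZEB2 (1 bin). No enriched run at a start, joined across gaps of at most 1 bin, was longer than 2 kb. Genes with at least 1 enriched bin were 2 of 9 (22.2%), close to the 23.0% of autosomal 10 kb windows that hold one. Within 50 kb of the starts, 12 of 900 bins (1.33%) were enriched.

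**Figure D2:**
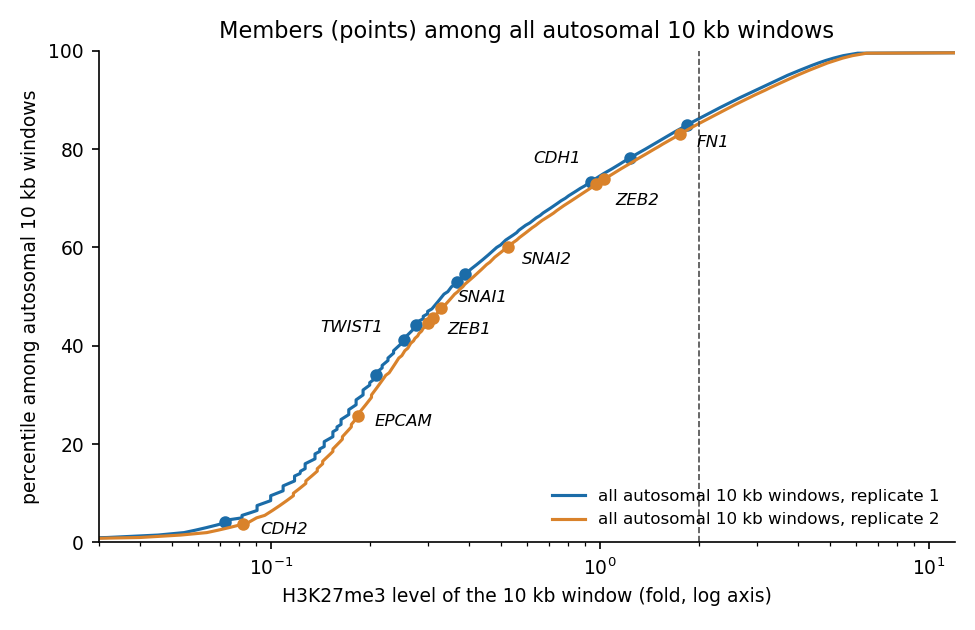
Percentile among all autosomal 10 kb windows (vertical) against the level of the window (horizontal, log axis), with the distribution of each library as a line and the 9 genes as points in the colour of their library. FN1 lies at percentiles 84.8 and 83.0, CDH2 at 4.12 and 3.78, and the names stand beside the points of replicate 2.

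Among the mesenchymal genes, FN1 carried the highest level of the 9 and CDH2 the lowest. FN1 encodes fibronectin, a glycoprotein of the extracellular matrix, and CDH2 encodes N-cadherin, the adhesion receptor that replaces E-cadherin in mesenchymal cells. The FN1 window held 404 reads in replicate 1 and 657 in replicate 2, giving levels of 1.84 and 1.75 (mean 1.79 ± 0.0607, SD, n = 2). The CDH2 window held 16 and 31 reads, a level of 0.0727 and 0.0826 (mean 0.0777 ± 0.00698, SD, n = 2). The values lie far apart in both libraries, and the ratio of FN1 to CDH2 reads was 25.2 in replicate 1 (95% interval 11.4 to 70.1) and 21.2 in replicate 2 (11.6 to 40.4). It depended on the width of the window, with 39.5 and 38.8 within 2 kb, where CDH2 held 4 and 8 reads, and 9.39 and 9.45 within 10 kb. Intervals of ratios are exact binomial ones on counts divided by the dispersion between the libraries, and cover counting error only.

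The mark at FN1 was a narrow peak before the start, not a block over the gene. Along transcription, the bins from 5 kb before the start to the start stood at 0.636, 3.18, 4.82, 3.82 and 1.91 in replicate 1 and at 0.799, 1.76, 4.96, 4.56 and 2.18 in replicate 2. In the 5 bins after the start the level lay between 0.409 and 1.09 in replicate 1 and between 0.320 and 0.853 in replicate 2. Both libraries thus had their highest bin 2 to 3 kb before the start, and every bin after the start lay under those of the peak. The enriched run covered 2 kb, chr2:216302001-216304000 on hg19, at 4.32 in replicate 1 and 4.76 in replicate 2. Since reads were not independent, counts were divided by the dispersion of 2.51 for 1 kb bins, and the adjusted Poisson p of its bins was then 4.98e-09 and 1.62e-14 in replicate 1 and 2.85e-22 and 2.94e-26 in replicate 2. These p-values cover counting error only. The bin 2 to 3 kb before the start ranked at percentiles 96.9 and 96.6 among autosomal bins.

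Reads before the FN1 start exceeded those after it 3.59 times in replicate 1 (95% interval 2.43 to 5.48) and 4.39 times in replicate 2 (3.16 to 6.16). No other bin within 50 kb of FN1 was enriched in both libraries. The level from 5 to 50 kb was 0.50 and 0.532 before the start and 0.519 and 0.633 after it. The peak stands on the side of the noncoding gene FN1-DT, the next entry to FN1 in the GRCh38 gene order, while ATIC, a purine synthesis gene, lies beyond the end of FN1. The nearest run of at least 5 kb of enriched bins lay 813 kb away.

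At CDH2 the mark was near the floor in the 10 kb window, and low on average out to 50 kb on either side. The bin at 1 kb before the start held 0 reads in both libraries. For independent reads this would allow levels of up to 0.136 in replicate 1 and 0.0799 in replicate 2. Reads here were not independent, so the true limits are wider. The highest bin of the window was 0.182 in replicate 1 and 0.213 in replicate 2. Within 50 kb no bin passed 0.636 in replicate 1 or 0.533 in replicate 2, and none was enriched. These highest values lay above the median listed autosomal bin, at 0.409 in replicate 1 and 0.373 in replicate 2. The window ranked at percentile 4.12 and 3.78 of autosomal windows. Its surroundings were poor as well, at 0.143 and 0.161 within 500 kb, and the nearest run of at least 5 kb lay 1243 kb away.

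**Figure D3:**
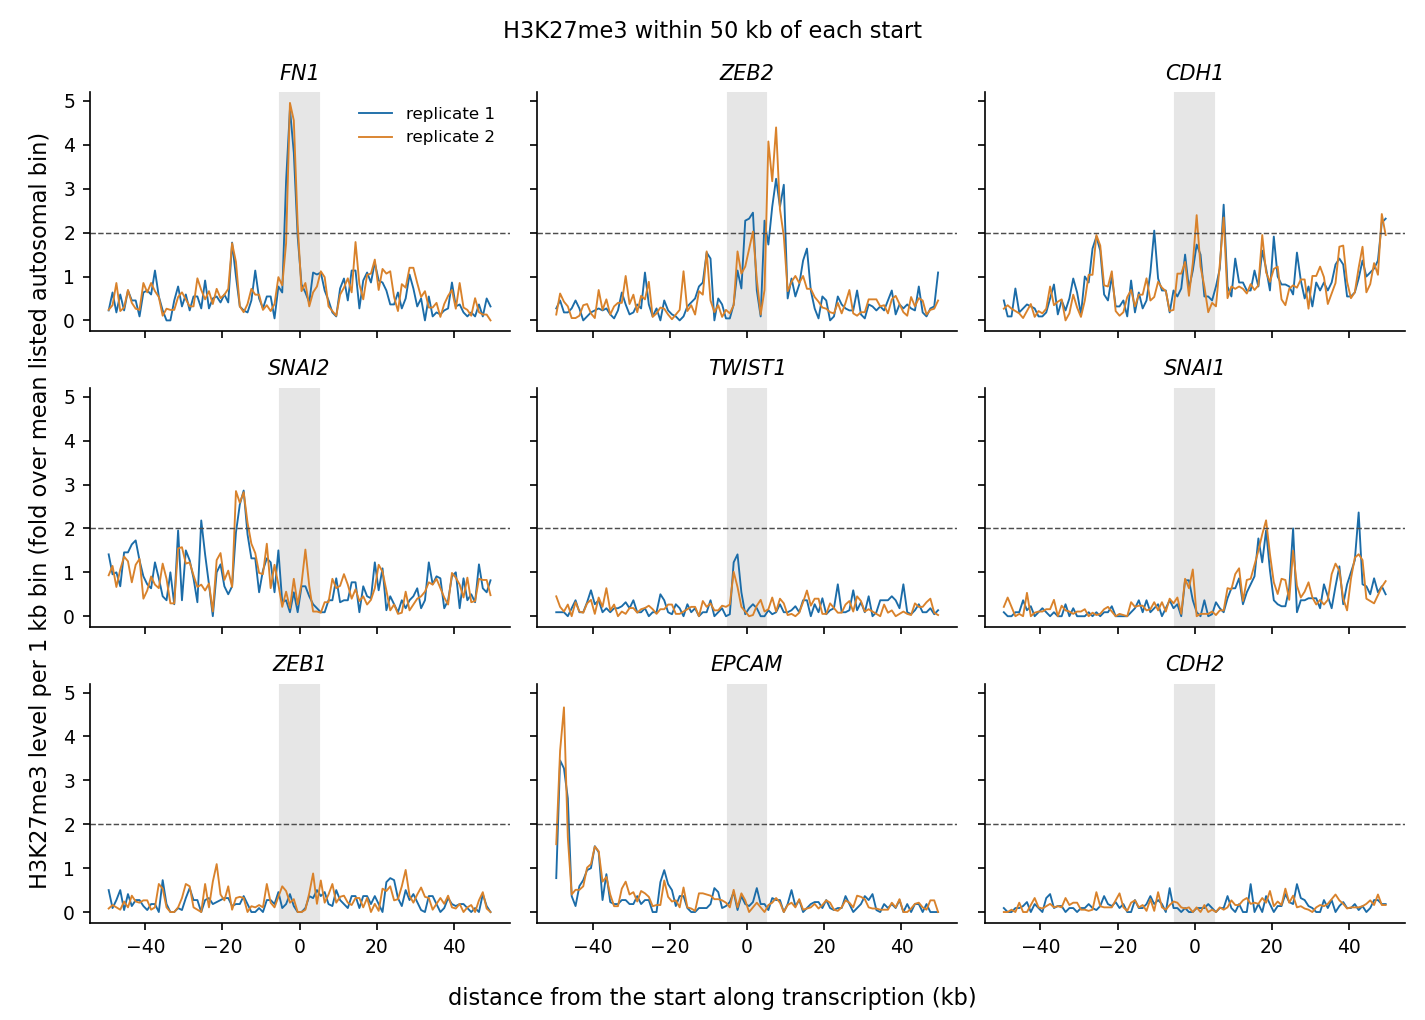
H3K27me3 level per 1 kb bin (vertical, fold over the mean listed autosomal bin) against distance from the start along transcription (horizontal, kb) for the 9 genes, in replicate 1 (blue) and replicate 2 (orange); grey marks 5 kb either side and the dashed line 2-fold. FN1 shows a peak of 4.82 and 4.96 before its start, ZEB2 a peak of 3.23 and 4.40 inside the gene 7 to 8 kb after it, EPCAM a run at 3.36 and 4.17 from 49 to 47 kb before it, and CDH2, ZEB1 and TWIST1 have no bin above 2.

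Among the 5 factor genes, ZEB2 stood above the others. ZEB1 and ZEB2 encode zinc finger and homeobox repressors that bind E-boxes through paired zinc finger clusters. The ZEB2 window held 272 and 367 reads, giving levels of 1.24 and 0.978 (mean 1.11 ± 0.183, SD, n = 2). The ZEB1 window held 46 and 117 reads, a level of 0.209 and 0.312 (mean 0.260 ± 0.0726, SD, n = 2). Both libraries had ZEB2 above ZEB1, 5.91 times in replicate 1 (95% interval 3.57 to 10.7) and 3.14 times in replicate 2 (2.22 to 4.51). Within 2 kb of the starts, where ZEB1 held 5 and 13 reads, the ratio was 34.2 in replicate 1 and 17.2 in replicate 2.

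Around the ZEB2 start, the bins from 1 kb before to 2 kb after it stood at 2.27, 2.32 and 2.45 in replicate 1 and at 1.23, 1.63 and 2.02 in replicate 2. Replicate 1 was the higher library in each of these 3 bins, and only the last of them was enriched in both (adjusted p 0.00252 in replicate 1 and 0.00266 in replicate 2, Poisson test on counts divided by the dispersion). It covers chr2:145276001-145277000 on hg19. This call rests on a small margin: with replicate 2 thinned to the depth of replicate 1, or with a fold minimum of 3, no ZEB2 bin within 5 kb was enriched. Replicate 1 alone gave 4 such bins and replicate 2 alone gave 1.

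The higher part of the ZEB2 signal lay inside the gene, past the window. A run of 3 kb from 6 to 9 kb after the start, chr2:145269001-145272000 on hg19, stood at 2.80 in replicate 1 and 3.37 in replicate 2. Its highest bin reached 3.23 and 4.40, from 71 and 165 reads. The bin 3 to 4 kb after the start, between this run and the start, was low in both libraries at 0.0909 and 0.133. ZEB2 lay 4055 kb from the nearest enriched run of at least 5 kb, the greatest such distance of the 9 genes, and its surroundings within 500 kb stood at 0.277 and 0.289. The window was 4.46 times its surroundings in replicate 1 and 3.38 times in replicate 2.

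ZEB1 was empty at its start. The bins from 1 kb before to 1 kb after the start held 0 reads in both libraries. For independent reads this would allow levels of up to 0.136 and 0.0799 per bin, and the limits are wider here, where reads were not independent. The other 8 bins of the window lay between 0.0909 and 0.50 in replicate 1 and between 0.0533 and 0.879 in replicate 2. Within 50 kb no bin passed 0.773 in replicate 1 or 1.09 in replicate 2. The RefSeq stretches of the 7 ZEB1 starts held between 7 and 27 CG dinucleotides in 250 bases, and the part of base composition or mappability in the lack of reads was not tested.

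SNAI1, SNAI2 and TWIST1 lay near the median window. SNAI1 and SNAI2 encode the zinc finger repressors Snail and Slug, and TWIST1 a basic helix-loop-helix factor. SNAI2 stood at 0.368 and 0.525 (mean 0.446 ± 0.111, SD, n = 2), from 81 and 197 reads. TWIST1 stood at 0.391 and 0.301 (mean 0.346 ± 0.0635, SD, n = 2), from 86 and 113 reads. SNAI1 stood at 0.277 and 0.330 (mean 0.304 ± 0.0376, SD, n = 2), from 61 and 124 reads. The ratio of SNAI2 to SNAI1 reads was 1.33 in replicate 1, with a 95% interval of 0.733 to 2.35, and 1.59 in replicate 2, with 1.08 to 2.32. These 3 genes had 0 enriched bins within 5 kb.

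Within 5 kb of the start, most of the low signal of TWIST1 and SNAI1 lay before it, on the same side as the FN1 peak. At TWIST1 the bins from 4 to 2 kb before the start stood at 1.23 and 1.41 in replicate 1 and at 1.01 and 0.666 in replicate 2, and both libraries lay at or under 0.373 in each bin after the start. Reads before the start exceeded those after it 5.14 times (95% interval 2.05 to 18.0) and 3.04 times (1.43 to 6.40). At SNAI1 the 3 bins before the start stood at 0.818, 0.818 and 0.364 in replicate 1 and at 0.853, 0.639 and 1.07 in replicate 2. Reads before its start exceeded those after it 4.55 times (1.58 to 19.2) and 11.4 times (3.91 to 41.2), from 50 against 11 reads and 114 against 10 reads. FN1, SNAI1 and TWIST1 were the 3 of 9 genes whose interval lay above 1 in both libraries. Among autosomal 10 kb windows, 10.1% had such an excess in the 5 kb at lower positions and 10.1% in the 5 kb at higher positions. At the other 6 genes the interval held 1 in at least 1 library.

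Farther from the start, SNAI2 and SNAI1 differed in where the mark lay. SNAI2 had an enriched run of 2 kb from 16 to 14 kb before its start, at 2.70 in both libraries, and its level from 5 to 50 kb was 1.13 and 1.10 before the start, against 0.533 and 0.546 after it. The SNAI1 bin with the highest mean of both libraries lay 18 to 19 kb after the start, at 1.95 and 2.18, and was not enriched in both. In replicate 1 another bin, 42 to 43 kb after the start, was higher at 2.36. Its level from 5 to 50 kb was 0.108 and 0.154 before the start and 0.686 and 0.763 after it. Among coding genes in the GRCh38 gene order, SNAI1 lies between RNF114 and UBE2V1, genes of the ubiquitin system, with RNF114 on the low side. Among all genes the next entries are RNU6-147P on the low side and SCREEM1 on the high side. TWIST1 stood in a poor region, with 0.191 and 0.201 within 500 kb.

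The epithelial genes differed from each other. CDH1 encodes E-cadherin, the adhesion receptor of epithelial junctions, and EPCAM an adhesion molecule of epithelial cell surfaces. The CDH1 window held 207 and 387 reads, a level of 0.941 and 1.03 (mean 0.986 ± 0.0638, SD, n = 2), at percentiles 73.4 and 73.8. The EPCAM window held 56 and 69 reads, a level of 0.255 and 0.184 (mean 0.219 ± 0.050, SD, n = 2), at percentiles 41.3 and 25.7. CDH1 exceeded EPCAM 3.70 times in replicate 1 (95% interval 2.27 to 6.33) and 5.61 times in replicate 2 (3.68 to 8.88). The mean of CDH1 was close to that of ZEB2, whose library values enclosed it.

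CDH1 also stood above CDH2, its counterpart in the cadherin switch, 12.9 times in replicate 1 (95% interval 5.71 to 36.5) and 12.5 times in replicate 2 (6.76 to 24.1). Within 2 kb the ratio was 28.0 and 25.8, and within 10 kb it was 7.54 and 7.71. The highest bin of the CDH1 window was that just after the start, at 1.73 in replicate 1 and 2.40 in replicate 2, so that it was enriched in replicate 2 alone. The bins on either side of it stood at 1.14 and 1.5 in replicate 1 and at 1.31 and 1.23 in replicate 2. An enriched bin followed 7 to 8 kb after the start, at 2.64 and 2.34. From 5 to 50 kb the level was 1.04 and 0.988 after the start, against 0.589 and 0.501 before it. The side before the start is that of the cadherin gene CDH3, the next coding gene there. Chromosome 16 as a whole stood at 1.25 in both libraries, and scaled to its own chromosome the CDH1 level was 0.789. Chromosome 18 stood at 0.840 in replicate 1 and 0.842 in replicate 2, and CDH2 scaled to it was 0.0923. With that scaling CDH1 stayed above CDH2, by a smaller ratio.

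**Figure D4:**
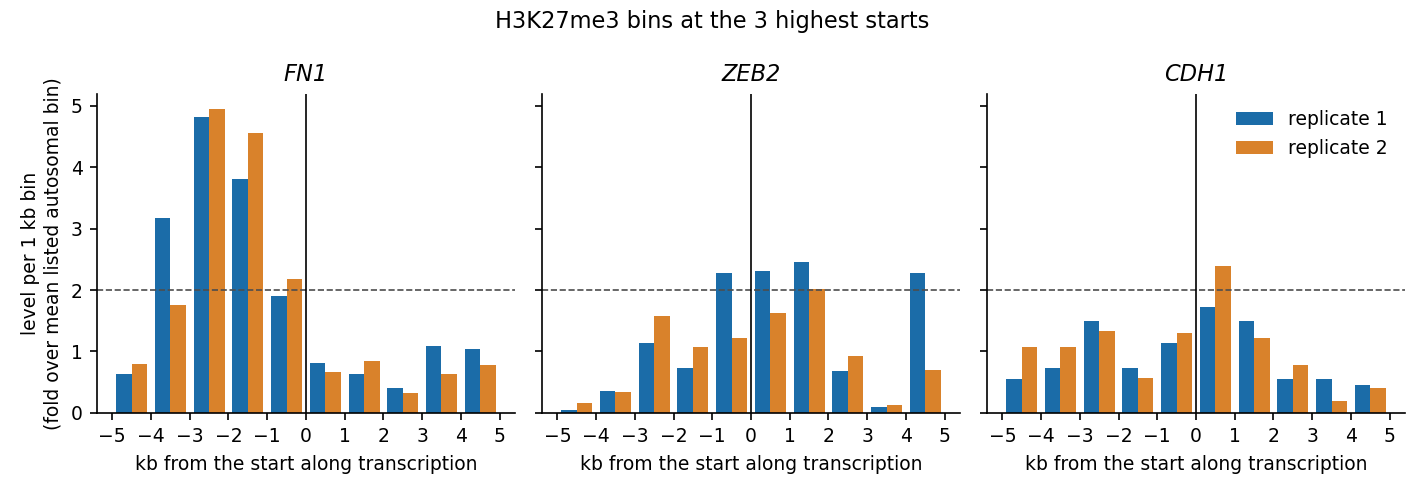
Level of each 1 kb bin (vertical, fold over the mean listed autosomal bin) within 5 kb of the starts of FN1, ZEB2 and CDH1 (horizontal, kb along transcription), in replicate 1 (blue) and replicate 2 (orange), with 2-fold as a dashed line. The FN1 bins peak before the start, those of ZEB2 at the start and just after it, and the CDH1 bin after the start passes 2-fold in replicate 2 alone.

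At EPCAM the window and the side after the start were poor in the mark, while the surroundings within 500 kb stood at 0.736 and 0.799. Each bin of its window was at or under 0.545 in replicate 1 and 0.506 in replicate 2. From 5 to 50 kb the level was 0.575 and 0.664 before the start, and 0.153 and 0.152 after it. An enriched run of 2 kb lay 49 to 47 kb before the start, at 3.36 and 4.17, and a run of 10 kb at 4.04 and 4.08 lay 61 kb before it, chr2:47525001-47535000 on hg19. This was the shortest distance from any of the 9 starts to an enriched run of at least 5 kb.

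At none of the 9 genes did the libraries differ beyond the noise of like windows. A two-sided exact binomial test on counts divided by the dispersion of 2.66, Benjamini-Hochberg adjusted over all autosomal 10 kb windows, called 0 of 9 genes and 1 of 267126 windows (0.000374%). The lowest unadjusted p was that of ZEB2, 0.0271, with replicate 1 higher, and it was the only gene under 0.05 of 9, while 3.85% of autosomal windows were. The dispersion was taken from these same libraries and absorbs differences between them. Counting error, widened by it, was 8.11% of the level at FN1 in replicate 1 and 6.36% in replicate 2, and 40.8% and 29.3% at CDH2. Across the 100 bins within 50 kb of a start, which share a library, Pearson's r between the libraries was 0.921 at EPCAM and 0.888 at FN1. It was 0.143 at CDH2, 0.269 at ZEB1 and 0.391 at TWIST1, and lay from 0.724 to 0.814 at the other genes. Counts at CDH2 were sparse, and the part of this in the low r was not tested.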

How the data were processed

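H3K27me3 ChIP-seq was measured in 2 libraries of HCT116 cells, 1 group. The authors deposited raw read counts per bin of 1000 bases, per the text deposited with the series; bins with no read are not listed and were set to 0. The submitters' processing notes name the aligner BWA 0.7.12 and the build hg19 (GRCh37). How bins were counted, and which duplicate or quality filters were applied, is not given in the sources used here. Among counts, even ones made up 67.8% and 67.7% of those from 1 to 10 in the autosomes of replicates 1 and 2.

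Levels, windows and Poisson calls were computed as described above with scipy 1.17.1, numpy 2.4.6 and pandas 2.3.3 under Python 3.11.15, and drawn with matplotlib 3.10.9. The dispersion is the variance of the split of reads between the libraries over that of single reads, 2.51 for 1 kb bins and 2.66 for 10 kb windows. An empty bin is given an upper limit of 3 counts, which takes reads as independent. With the dispersion of 2.51 for 1 kb bins, a wider limit would apply. The Poisson call was run on simulated reads drawn in pairs, with planted bins on a flat low level. The binomial test was run on simulated independent counts, with no dispersion. These settings differ from the data, so they do not give the rate of false calls in the data. All 9 genes are named; these genes, lists and tests were chosen with earlier results of these data known. The 3 genes compared bin by bin, the ratios between genes, the intervals before and after a start and the nearest runs of at least 5 kb were chosen after levels had been seen. The strand of CDH1, EPCAM, SNAI1, SNAI2 and TWIST1 is from general knowledge, that of the others from the promoter table. RefSeq tables on GRCh38.p14 gave sequences, names and gene order only. Other epithelial and mesenchymal genes were planned but need starts on hg19, and are not analysed here. Spread between these libraries may be technical.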

Additional observations from a re-analysis of the deposited data

How the results depend on the processing

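The median level of 0.346 over the 9 genes became 0.379 within 2 kb of the starts, 0.291 within 10 kb, 0.881 scaled to the autosomal median bin, 0.410 scaled to all autosomal bins and 0.938 as a ratio to the surroundings within 500 kb, which was chosen after seeing the data. Without either replicate it was 0.330 to 0.368. The 3 enriched bins became 7 at a fold minimum of 1.5 (16.4% of autosomal bins), 15 scaled to the autosomal median (26.7%), and 5 to 7 with a replicate left out (15% and 14%). Of the 15 bins scaled to the median, 5 lay at FN1, 4 at ZEB2, 4 at CDH1, 1 at SNAI1 and 1 at TWIST1. The count of 0 genes at 2-fold became 1 at a fold minimum of 1.5 (FN1) and 3 scaled to the median (FN1, ZEB2 and CDH1, at 4.59, 2.82 and 2.53). FN1 stood at 1.99 scaled to its own chromosome and at 2.12 scaled to all autosomal bins. Within 2 kb ZEB1 stood at 0.0717, ZEB2 at 1.71 and TWIST1 at 0.174. Ratios between genes at other widths were added after the data were seen, and that of SNAI2 to SNAI1 was 2.05 and 2.07 within 10 kb. The count of genes at 2-fold was 0 with either replicate left out. The summed length of runs at the starts, 3 kb, became 7 kb at a fold minimum of 1.5 and 5 to 9 kb from single replicates, where ZEB2 alone had 6 kb in replicate 1. The causes were not tested. Depth limits the genes near the floor: an empty bin would allow 0.136 and 0.0799 for independent reads. The limits are wider here, since reads were not independent. No paired analysis was possible because the samples form a single group.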
